A study of Mus musculus with 4 samples.

Results

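The expression of 50 genes of collagens and of the extracellular matrix that fibroblasts make, of 35869 genes listed, was examined in CD45+ cells from the adipose tissue of mice fed a normal diet (ND) or a high-fat diet (HFD). The genes were taken by name from a list of collagens, matrix proteins, matrix enzymes and fibroblast surface proteins, and all 50 were found. RNA-seq was done on 2 samples of mice fed ND and 2 samples of mice fed HFD, each diet given for 12 weeks from 8 weeks of age. All samples came from male WT C57BL/6 mice. The stromal vascular fraction of the epididymal white adipose tissue (eWAT), the fat pad next to the epididymis, was freed with collagenase, and immune cells were enriched from it with microbeads against CD45. The number of mice behind each library is not given in the sources used here, so the p-values below measure the spread between these samples, which may be technical.

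Fibroblasts and the progenitors of adipocytes secrete most of the matrix of the adipose tissue, in which fibrils of type I and type III collagen carry the load, type VI collagen forms beaded filaments around the adipocytes, and type IV collagen forms the basement membrane. Collagen chains are folded in the endoplasmic reticulum with the help of chaperones, trimmed outside the cell by proteinases and cross-linked by lysyl oxidases. Matrix build-up is a known feature of adipose tissue in obesity. Most of these genes are used as markers of stromal cells rather than of CD45+ cells. In bulk RNA, more cells of a type and more RNA per cell cannot be told apart.

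Values are given as TPM, in which each gene's read count is divided by its length and each library is scaled to the same total, so levels can be compared between genes. Changes are given as log2 fold changes of TPM + 1 from limma over 16849 genes, and a gene was called when its adjusted p-value was under 0.05 and the change was at least 1.5-fold. From the smallest steps in the TPM of short genes, the libraries hold approximately 37500000 and 44400000 counted reads in ND and 46800000 and 41000000 in HFD. The immune marker list of 5 genes, with Ptprc, the gene of CD45, summed to 3026 and 2960 TPM with ND and 2442 and 2562 TPM with HFD, and the 9 macrophage markers summed to 18160 and 17648 TPM with ND and 14839 and 15636 TPM with HFD. Both sums were thus lower in HFD, where the matrix genes were higher. Of the 5 immune markers, 3 were lower in both HFD libraries. Ptprc itself was at 54.5 and 59.4 TPM with ND and 55.3 and 53.7 TPM with HFD. The diets overlapped for Ptprc (log2 fold change -0.06) and Cd53 (-0.006). Among these markers, Coro1a (log2 fold change -0.71), Mrc1 (-0.83) and C1qa (-0.62) were called lower and Cd68 (0.86) and Adgre1 (0.78) higher, and the part of these cells in the results was not tested. Transcripts of other cells were present as well. The 8 spermatid markers summed to 7321 TPM for HFD sample 1 and to between 1932 and 2209 TPM in the other libraries, and the 8 markers of epididymal epithelium summed to 184 and 200.5 TPM with ND and 40.8 and 39.2 TPM with HFD. The HFD libraries differed from each other by 3.12 times their counting error and the ND libraries by 1.47 times, over 13248 and 13714 genes.

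Most of the matrix genes were higher in HFD. The most abundant were Dcn, Sparc and Col3a1 in ND and the collagens Col3a1, Col1a2 and Col1a1 in HFD. Summed over the 50 genes, the level was 1891 and 2002 TPM in the ND libraries, 6406 TPM for HFD sample 1 and 12140 TPM in HFD sample 2. The sum was 3.29-fold above the ND mean in the first HFD library and 6.24-fold above it in the second. Both HFD values lay above both ND values in 47 of the 50 genes, as against 34.1% of all genes tested, and below them in 2, as against 32.8%. In limma, 32 of the 50 were called higher in HFD, where 8.08% of all genes tested were, and 1 was called lower, where 10.3% were. The median log2 fold change of the 50 was 1.95, from -0.82 to 3.83, beside a median of 0.06 over all genes tested. The count of calls rests on the filter for low values: with every gene above 0 TPM tested, 5 of the 32 remained called, namely Col1a1, Col3a1, Col6a3, Fbln7 and Lum, and 39 of the 50 were higher at an unadjusted p under 0.05, beside 8746 of all 29097 genes in either direction. It also rests on the ND libraries, the closer pair, since no call of the whole table remained in limma with either of them left out. The median log2 fold change of the 50 was then 1.88 without ND sample 1 and 2.02 without ND sample 2, beside 0.03 and 0.08 over all genes tested. Without HFD sample 1, the library rich in spermatid transcripts, the median of the 50 was 2.40, beside -0.07 over all genes tested. Without HFD sample 2 it was 1.44, beside 0.11. In both fits the spread comes from the closer ND pair alone, so their calls are not counted here.

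**Figure D1:**
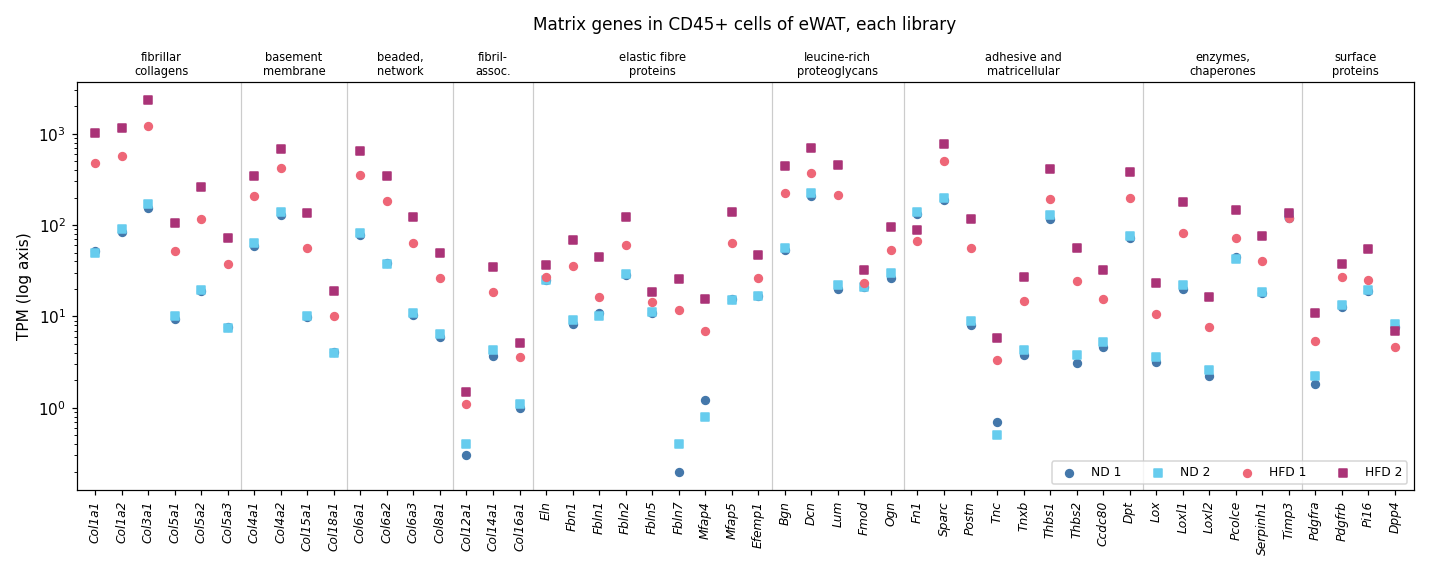
TPM of each of the 50 matrix genes (log axis) in the 4 libraries, ordered by the role of the protein, with circles for sample 1 and squares for sample 2. The ND libraries nearly coincide for most genes, and HFD sample 2 lies above HFD sample 1 in all 50.

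All 6 fibrillar collagens were called higher, with a median log2 fold change of 3.16. Col1a1 (ENSMUSG00000001506.10, chr11:94936224-94953042 on the plus strand of mm10 in GENCODE vM21), the α1 chain of type I collagen, had 51.8 and 49.3 TPM with ND, 476 TPM for HFD sample 1 and 1028 TPM in HFD sample 2. Its log2 fold change was 3.77 (SE, the standard error, 0.43, with an adjusted p of 0.0167 in limma). The second HFD library was 2.16-fold above the first, and both lay far above the ND libraries. Col1a2 (chr6:4504814-4541544), the other chain of type I collagen, had 84.3 and 90.7 TPM with ND and 567 and 1162 TPM with HFD. For Col3a1 (chr1:45311538-45349706), the single chain of type III collagen, the values were 154.9 and 170.8 TPM with ND and 1206 and 2326 TPM with HFD. Col3a1 was the most abundant of the 50 in HFD and the third in ND, and by level it moved from place 1005 and 941 among all genes in the ND libraries to 126 and 51 in the HFD libraries. Its log2 fold change was 3.36 (SE 0.37, adjusted p = 0.0157 in limma), and that of Col1a2 was 3.20 (SE 0.40, adjusted p = 0.0196). Together the chains of types I and III made up 15.4% and 15.5% of the matrix sum in ND and 35.1% and 37.2% in HFD.

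Type V collagen, a minor component that sits inside the type I fibrils and limits their width, went the same way. Col5a2 rose from 18.9 and 19.5 TPM to 115.2 and 263.2 TPM, Col5a1 from 9.3 and 10.1 TPM to 51.9 and 106.4 TPM, and Col5a3 from 7.6 and 7.4 TPM to 37.3 and 72.1 TPM. Their log2 fold changes were 3.12, 2.82 and 2.64. Col5a2 lies 24614 bases from Col3a1 on chromosome 1, on the opposite strand.

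The RefSeq table for GRCm38.p6, the assembly called mm10, held promoter windows, from 250 bases before to 50 bases after the start site, for 34 of the 50 genes, and those of Col1a2 (chr6:4505368-4505667, plus strand) and Col3a1 (chr1:45311288-45311587, plus strand) are printed as the promoters of the 2 most abundant matrix genes in HFD. Beside them stands that of Fbln7 (chr2:128863682-128863981, plus strand), a gene near 0 TPM in ND that was called higher in HFD. Capitals mark the letters CCAAT and TATAAA on either strand, the cores of the CCAAT box and the TATA box.
Col1a2: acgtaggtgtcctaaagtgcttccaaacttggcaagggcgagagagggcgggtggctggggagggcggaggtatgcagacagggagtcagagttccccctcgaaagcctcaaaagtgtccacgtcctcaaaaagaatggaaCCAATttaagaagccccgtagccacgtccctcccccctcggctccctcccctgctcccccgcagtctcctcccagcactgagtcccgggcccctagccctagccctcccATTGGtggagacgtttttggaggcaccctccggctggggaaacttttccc
Col3a1: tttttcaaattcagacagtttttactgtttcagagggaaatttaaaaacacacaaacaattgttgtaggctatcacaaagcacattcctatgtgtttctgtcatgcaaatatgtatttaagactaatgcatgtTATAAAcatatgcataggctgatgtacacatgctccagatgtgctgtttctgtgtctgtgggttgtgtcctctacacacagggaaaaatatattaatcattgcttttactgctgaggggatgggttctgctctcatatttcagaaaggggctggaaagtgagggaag
Fbln7: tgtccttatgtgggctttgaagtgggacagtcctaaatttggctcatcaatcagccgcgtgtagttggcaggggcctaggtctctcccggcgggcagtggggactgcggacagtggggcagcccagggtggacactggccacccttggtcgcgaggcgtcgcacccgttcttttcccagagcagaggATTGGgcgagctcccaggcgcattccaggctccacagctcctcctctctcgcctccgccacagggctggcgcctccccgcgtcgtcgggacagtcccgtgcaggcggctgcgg
In the Col1a2 window, CCAAT starts 109 bases before the start site and its complement lies at the start site itself. TATAAA is found 117 bases before the start site of Col3a1 and the complement of CCAAT 63 bases before that of Fbln7. The windows differ in base composition, with 61.0% G and C for Col1a2, 37.7% for Col3a1 and 66% for Fbln7. CCAAT was present in 12 of 40 windows of the matrix genes (30.0%) and in 37.4% of all 32851 windows, and TATAAA in 8 of 40 (20%) and in 13.6% of all. On the gene strand and starting 40 to 20 bases before the start site, TATAAA was present in 1 of 40 (2.5%), a window of Postn, and in 1.99% of all. These shares are descriptions and were not tested. The start sites are those of RefSeq, which for Col1a2 and Fbln7 lie inside the longer gene spans of GENCODE.

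Of the 4 basement membrane collagens, 3 were called higher. Col4a2 had 128.5 and 137.5 TPM with ND and 417.9 and 674 TPM with HFD, and Col4a1 had 59.2 and 62.8 TPM with ND and 209.7 and 344.6 TPM with HFD. These chains form the common type IV trimer of all basement membranes. The log2 fold changes were 2.12 for Col4a1 (SE 0.28, adjusted p = 0.0212 in limma) and 1.99 for Col4a2 (SE 0.27, adjusted p = 0.0223). The 2 genes lie head to head on chromosome 8 with start sites 21 bases apart, and their promoter windows, which share 78 bases, are printed to show the common stretch. Col4a1 is read from the minus strand (chr8:11312777-11313076) and Col4a2 from the plus strand (chr8:11312555-11312854), and capitals mark CCAAT on either strand.
Col4a1: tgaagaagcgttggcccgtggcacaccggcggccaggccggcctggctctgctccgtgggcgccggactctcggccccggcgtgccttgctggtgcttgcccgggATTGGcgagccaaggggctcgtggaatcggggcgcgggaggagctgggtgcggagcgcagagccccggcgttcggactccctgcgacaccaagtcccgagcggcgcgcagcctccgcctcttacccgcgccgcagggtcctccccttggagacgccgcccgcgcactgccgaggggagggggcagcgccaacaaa
Col4a2: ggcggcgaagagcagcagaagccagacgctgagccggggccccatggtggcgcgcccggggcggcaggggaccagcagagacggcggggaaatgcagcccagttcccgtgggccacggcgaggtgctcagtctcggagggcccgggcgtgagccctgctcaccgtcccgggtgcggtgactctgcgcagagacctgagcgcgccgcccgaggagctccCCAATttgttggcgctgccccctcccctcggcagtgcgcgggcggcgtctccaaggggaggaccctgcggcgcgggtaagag
Both windows are rich in G and C, at 74.0% and 73.7%, and neither holds TATAAA. The 5′ exons of the 2 genes overlap by 22 bases on opposite strands, which is 0.295% of the exon bases of Col4a1. Col15a1, a collagen at the outer face of basement membranes, rose from 9.9 and 10.2 TPM to 56.7 and 134.7 TPM (log2 fold change 3.0). Col18a1, the precursor of endostatin, had 4.1 and 4.0 TPM with ND and 10.1 and 19 TPM with HFD, with a log2 fold change of 1.56 and an adjusted p of 0.0511 in limma, just outside the threshold.

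All 3 chains of type VI collagen were called higher. Col6a1 rose from 77.4 and 81.6 TPM to 348.8 and 641 TPM, Col6a2 from 38.0 and 37.2 TPM to 185.1 and 341.4 TPM, and Col6a3 from 10.4 and 11 TPM to 63.8 and 121.4 TPM. The log2 fold changes were 2.56, 2.71 and 2.93. Col8a1, a short-chain collagen of vessel walls, followed with 5.9 and 6.4 TPM with ND and 26 and 49 TPM with HFD (2.36). Among the collagens that decorate the surface of fibrils, Col14a1 rose from 3.7 and 4.3 TPM to 18.6 and 34.5 TPM (2.40). Col16a1 (1.37) and Col12a1 (0.76) were called higher at low levels, Col16a1 at no more than 5.1 TPM and Col12a1 at no more than 1.5 TPM in any library. In ND the reads of Col12a1 were approximately 65.1 and 101, so its counts in ND are among the smallest of the 50, and its log2 fold change was 0.24 with a pseudocount of 5 and 1.63 with 0.1. That of Col16a1 was 0.62 and 1.93 under the same settings. In all, 16 of the 17 collagen chains of the list were called higher, with Col18a1 as the exception. Col18a1 was called under 4 of the alternatives, and Col12a1, one of the 16, passed the filter on low values through HFD alone and lost its call under 7.

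The ratios between chains were compared across the libraries. The TPM ratio of Col1a1 to Col1a2 was 0.614 and 0.544 in the ND libraries and 0.840 and 0.885 in the HFD libraries. Type I collagen holds more α1 than α2 chains, and in each library Col1a1 had the lower TPM. Col4a1 to Col4a2 gave 0.461 and 0.457 in ND and 0.502 and 0.511 in HFD, and Col6a3 to Col6a1 gave 0.134 and 0.135 in ND and 0.183 and 0.189 in HFD. In the other direction, Col6a1 to Col6a2 gave 2.04 and 2.19 in ND and 1.88 in both HFD libraries, and Col5a1 to Col5a2 gave 0.492 and 0.518 in ND and 0.451 and 0.404 in HFD. Between collagens, Col3a1 to Col1a1 gave 2.99 and 3.46 in ND and 2.53 and 2.26 in HFD, and Col5a2 to Col1a1 gave 0.365 and 0.396 in ND and 0.242 and 0.256 in HFD. The diets did not overlap in any of these 7 ratios, which is frequent in these libraries, since among all genes tested both HFD values lay above both ND values in 34.1% and below them in 32.8%. The differences between the diets in these ratios were not tested.

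**Figure D2:**
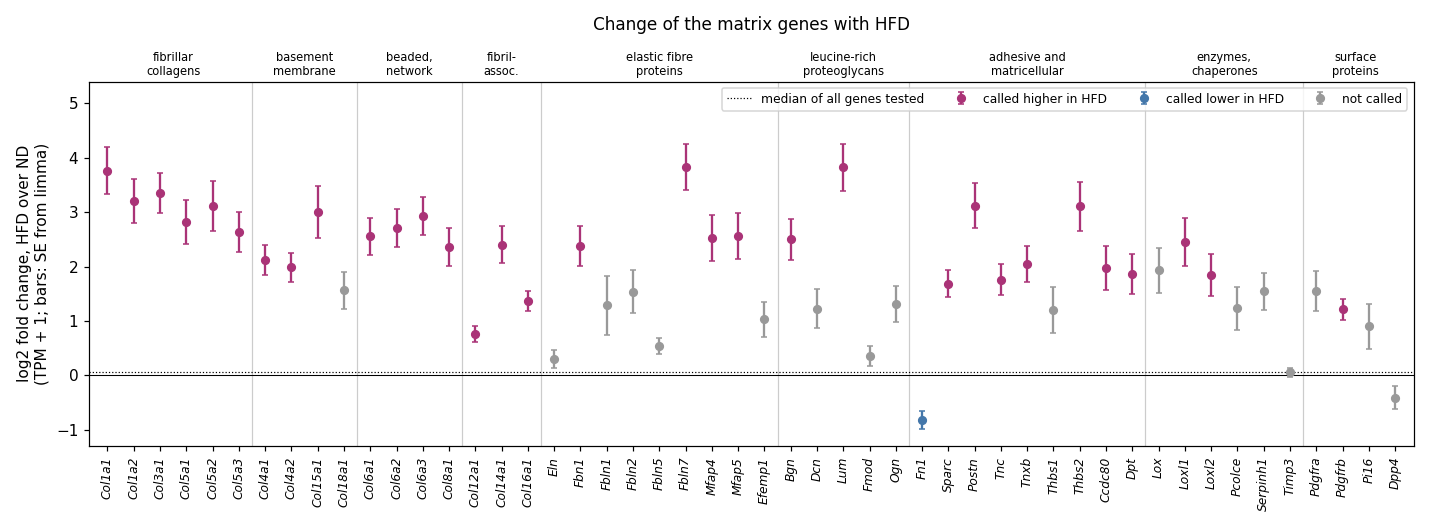
Log2 fold change between HFD and ND of each of the 50 matrix genes (TPM + 1), with bars for the standard error from limma and colors for the call. Col1a1, Fbln7 and Lum lie highest, at 3.77 to 3.83, while Fn1 and Dpp4 lie below 0 and Timp3 lies at the median of all genes, 0.06.

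Of the 9 proteins of elastic fibres, 4 were called higher and 5 were not called. Fbln7, a fibulin that binds cell surfaces and matrix proteins, had 0.2 and 0.4 TPM with ND and 11.7 and 25.8 TPM with HFD. Its log2 fold change was 3.83 (SE 0.43, adjusted p = 0.0164 in limma), and it depends on the pseudocount, at 5.50 with 0.1 and 2.10 with 5 added in place of 1. Fbln7 passed the filter on low values through its HFD libraries alone, as Col12a1 and Tnc did, so these 3 genes had to be higher in HFD to be tested and their calls are no support for the count. In ND these values stand for approximately 9.20 and 21.3 reads, as against 611 and 1170 reads in HFD. Fbn1, the fibrillin of the microfibril scaffold, rose from 8.2 and 9.1 TPM to 35.2 and 68.7 TPM (2.38). A gene on the opposite strand, Gm9913, covers 20.1% of the exon bases of Fbn1, and whether counting used the strand is not given in the sources used here. The microfibril-associated genes Mfap5 (15.3 and 15 TPM with ND, 64.1 and 137.8 TPM with HFD) and Mfap4 (1.2 and 0.8 TPM with ND, 7.0 and 15.3 TPM with HFD) were called higher too, with log2 fold changes of 2.56 and 2.52. That of Mfap4 was 1.38 with a pseudocount of 5, where its call ended, and 3.27 with 0.1.

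Eln, the gene of elastin itself, had 25.3 and 25.2 TPM with ND and 27.0 and 36.5 TPM with HFD, and its log2 fold change of 0.30 was not past the thresholds (adjusted p = 0.277 in limma). Fbln5, which helps to place elastin on microfibrils, was likewise at 10.8 and 11.2 TPM with ND and 14.5 and 18.7 TPM with HFD (0.54, adjusted p = 0.0807 in limma). The other fibulins reached higher values in HFD sample 2 than in HFD sample 1. Fbln1 had 10.8 and 10.1 TPM with ND, 16.2 TPM for HFD sample 1 and 44.6 TPM in HFD sample 2, Fbln2 had 28.6, 29.3, 59.8 and 123.9 TPM in the same order, and Efemp1, the gene of fibulin-3, had 16.5, 16.6, 26 and 46.9 TPM. With log2 fold changes of 1.29, 1.54 and 1.04 and adjusted p-values of 0.178, 0.0740 and 0.103 in limma, these 3 were not called, although no HFD value fell within the ND range.

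Small leucine-rich proteoglycans bind collagen fibrils and set their spacing. Lum (chr10:97565128-97572703), the gene of lumican, rose from 19.8 and 22.2 TPM to 210.9 and 458 TPM, with a log2 fold change of 3.83 (SE 0.43, adjusted p = 0.0167 in limma). Dcn, the gene of decorin, lies 46984 bases from Lum on the same strand. It was the most abundant of the 50 in ND, at 209.6 and 225.9 TPM, and reached 371.7 and 700.3 TPM with HFD. Its log2 fold change of 1.23 was not past the thresholds (adjusted p = 0.0900 in limma), and it was 1.68 without HFD sample 1 and 0.77 without HFD sample 2. Bgn, the gene of biglycan, was called higher (52.8 and 56.3 TPM with ND, 223.1 and 439 TPM with HFD, log2 fold change 2.50). Ogn (1.31, adjusted p = 0.0686) and Fmod (0.35, adjusted p = 0.258) were not called in limma. Fmod, the gene of fibromodulin, was at 21.1 and 20.9 TPM with ND and at 22.9 and 32.1 TPM with HFD.

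Among the adhesive and matricellular proteins, 7 of 9 were called higher and Fn1 was called lower. Fn1 (ENSMUSG00000026193.15, chr1:71585520-71653200 on the minus strand), the gene of fibronectin, which macrophages also make, had 133.6 and 139.1 TPM with ND and 66.1 and 88.6 TPM with HFD. Both HFD libraries were below both ND libraries, and the log2 fold change was -0.82 (SE 0.17, adjusted p = 0.0461 in limma). The call of Fn1 ended under 7 of the alternatives, while the direction stayed. Among the genes called higher, the call of Loxl2 ended under 8, those of Ccdc80 and Col12a1 under 7 and that of Dpt under 6, and the others under 2 to 5. Sparc, a collagen-binding glycoprotein that endothelial cells make as well, rose from 188.8 and 198.2 TPM to 505.9 and 774.4 TPM (1.69). Postn, the gene of periostin, rose from 8.0 and 8.9 TPM to 55.9 and 117.2 TPM (3.12), and Thbs2, an inhibitor of vessel growth, from 3.1 and 3.8 TPM to 24.6 and 55.9 TPM (3.10). Thbs1, which activates latent TGF-β, had 117.1 and 127.4 TPM with ND and 192.9 and 409.4 TPM with HFD, and was not called (1.20, adjusted p = 0.129 in limma). Dpt (1.86), Ccdc80 (1.97), Tnxb (2.05) and Tnc (1.76) were called higher. Tnc, a tenascin of wounds and scars, stayed at no more than 5.8 TPM, and its log2 fold change was 0.76 with a pseudocount of 5 and 2.69 with 0.1.

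Of the 6 enzymes, chaperones and inhibitors that act on collagen and the matrix, 2 were called higher and none was called lower in limma, where 5 of the 6 had an unadjusted p under 0.05, beside 7133 of all 16849 genes. Loxl1 rose from 20.1 and 22.2 TPM to 81.2 and 177.4 TPM (log2 fold change 2.45, adjusted p = 0.0359 in limma). The lysyl oxidases Loxl2 (1.85, adjusted p = 0.0496) and Lox (1.93, adjusted p = 0.0502) lay on the 2 sides of the threshold in limma and cannot be told apart by their calls. With a pseudocount of 5, the change of Loxl2 was 1.15. Serpinh1, the collagen chaperone HSP47, had 18.2 and 18.3 TPM with ND and 40.4 and 75.3 TPM with HFD (1.55, adjusted p = 0.0545), and Pcolce, an enhancer of procollagen trimming, had 44.3 and 42.5 TPM with ND and 72.3 and 147 TPM with HFD (1.23, adjusted p = 0.108), so neither was called in limma. Timp3, a matrix-bound inhibitor of metalloproteinases, stood apart from the rest. It was at 119.4 and 127.7 TPM with ND and at 120.5 and 136.4 TPM with HFD, the diets overlapped, and the sign of its log2 fold change of 0.05 turned under 2 scalings and without HFD sample 2. Syn3, a gene on the opposite strand that covers 21.3% of the exon bases of Timp3, was at 0.1 TPM in each library.

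Of the surface proteins used to find fibroblasts, Pdgfrb, the PDGF receptor β that pericytes carry as well, was called higher (12.7 and 13.4 TPM with ND, 26.7 and 37.4 TPM with HFD, a change of 1.22 on the log2 scale, adjusted p = 0.0291 in limma). Pdgfra, the PDGF receptor α of fibroblasts and adipocyte progenitors, had 1.8 and 2.2 TPM with ND and 5.4 and 11 TPM with HFD (1.55, adjusted p = 0.0618 in limma). Pi16 and Dpp4, markers of an early progenitor state, were not called. Pi16 was at 19.0 and 19.6 TPM with ND, 25.3 TPM for HFD sample 1 and 54.0 TPM in HFD sample 2 (0.91, adjusted p = 0.203 in limma). Dpp4, a peptidase that T cells and dendritic cells also carry, was at 7.6 and 8.2 TPM with ND and 4.6 and 7.0 TPM with HFD (-0.41, adjusted p = 0.253 in limma).

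The ratio of the HFD libraries was examined gene by gene, to describe how far the genes moved by a common factor. The source of the transcripts was not tested. The log2 ratio of HFD sample 2 over sample 1 was above 0 in all 50 genes, with a median of 0.93 and a range from 0.18 to 1.41. Over all genes tested the median was -0.07, and 90% of them lay between -1.61 and 0.47. At least 1.5-fold higher in HFD sample 2 were 41 of the 50, as against 3.61% of all genes tested. These are single libraries, so the ratio has no test. Between the ND libraries the same genes differed little, with a median log2 ratio of 0.09 and a range from -0.29 to 0.23.

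The ratio was narrow in 2 of the 9 groups. For the fibrillar collagens it ran from 0.93 to 1.19, and for the chains of type VI collagen and Col8a1 from 0.88 to 0.92. It was wider in the other groups, as from 0.35 to 1.41 in the proteins of elastic fibres and from 0.69 to 1.23 in the basement membrane collagens. Col4a1 (0.71), Col4a2 (0.69), Tnc (0.66) and Sparc (0.61) had lower ratios. Lower still were Fbln5 (0.35), Eln (0.42), Fn1 (0.42), Fmod (0.47), Pdgfrb (0.47), Dpp4 (0.51) and Timp3 (0.18), together with Col16a1 (0.41) and Col12a1 (0.25), whose low TPM values make the added 1 weigh more. Fbln1 (1.41) was highest. Of the 50 genes, 36 had a ratio between 0.8 and 1.3, where 260 of the 16849 genes tested did.

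The rise above the ND mean was also compared, in the 40 genes whose level in HFD sample 1 was at least 5 TPM above that mean. The rise in HFD sample 2 was 1.78-fold to 5.94-fold that in HFD sample 1, with a median of 2.34. On this scale Col4a1 (1.91) and Col3a1 (2.07) were close, as were Col1a1 (2.30) and Lum (2.30). The highest values were those of Fbln1 (5.94), Pi16 (5.78) and Thbs1 (4.06).

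**Figure D3:**
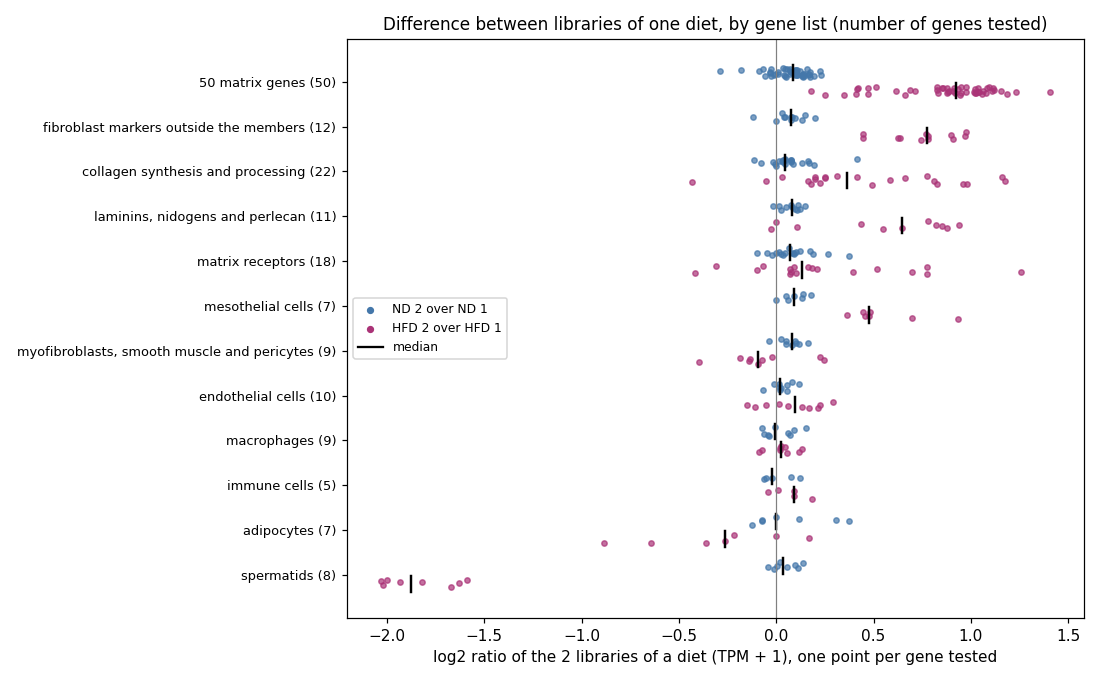
Log2 ratio of the 2 libraries of a diet (TPM + 1) for each gene tested in the matrix list and in lists of other genes, with black bars for the medians. In HFD the medians are 0.93 for the matrix genes, 0.77 for fibroblast markers outside the list and 0.48 for mesothelial markers. Endothelial, macrophage and immune markers lie near 0 and spermatid markers at -1.88.

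Marker lists of other cells were compared on the same measure. The 12 fibroblast markers that are not among the 50 genes had a median log2 ratio of HFD sample 2 over sample 1 of 0.77, from 0.44 to 0.97, and their sum was 240.6 and 246.9 TPM with ND, 468.8 TPM for HFD sample 1 and 890.9 TPM in HFD sample 2. Of these, 4 were called higher, where 8.08% of all genes tested were, and 8 were not. Among the 4 were Cd248 (endosialin, log2 fold change 2.08) and Cygb (cytoglobin, 1.65). Another of the 4, Fap (0.8 and 0.9 TPM with ND, 2.6 and 4.6 TPM with HFD), passed the filter on low values through HFD alone and had to be higher to be tested. Osr1, a transcription factor, was lower in both HFD libraries (14.7 and 15.6 TPM with ND, 9 and 12.6 TPM with HFD, -0.47), and the diets overlapped for Tcf21 (0.32). Clec3b, the most abundant, had 130.3 and 132.9 TPM with ND and 242.5 and 475.7 TPM with HFD (1.36, adjusted p = 0.0819 in limma). Endothelial markers summed to 588 and 590 TPM with ND and to 672 and 744 TPM with HFD, with a median ratio of 0.10 and 0 of 10 called in limma, where 6 had an unadjusted p under 0.05, beside 7133 of all 16849 genes. The list of myofibroblasts, smooth muscle and pericytes had a median ratio of -0.10 and its sum was lower in HFD, at 261 and 244 TPM as against 377 and 397 TPM. Acta2 (-1.60) and Tagln (-1.23), genes of the contractile apparatus, were called lower, and Cspg4 (NG2, 1.76) higher. Mesothelial markers had a median ratio of 0.48 and summed to 92.0 and 97.7 TPM with ND and 57.7 and 90.3 TPM with HFD, with Krt19 called lower (-1.0). Wt1, a transcription factor of the same list, was at 7.4 and 8.2 TPM with ND and 12.9 and 25.6 TPM with HFD (1.13, adjusted p = 0.113 in limma), with a ratio of 0.94, and Upk3b, the most abundant of the list, was not called (-0.80). No marker of these 4 lists was at 0 in any library. Among these marker lists, the median ratio of the matrix genes (0.93) was nearest to that of other fibroblast genes (0.77). The medians of mesothelial, endothelial and mural genes were lower, though HFD sample 2 was above sample 1 in all 7 mesothelial markers tested. Markers of epididymal epithelium had a median ratio of 0.32, from -1.92 to 1.78. The part of these cells in the results was not tested.

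**Figure D4:**
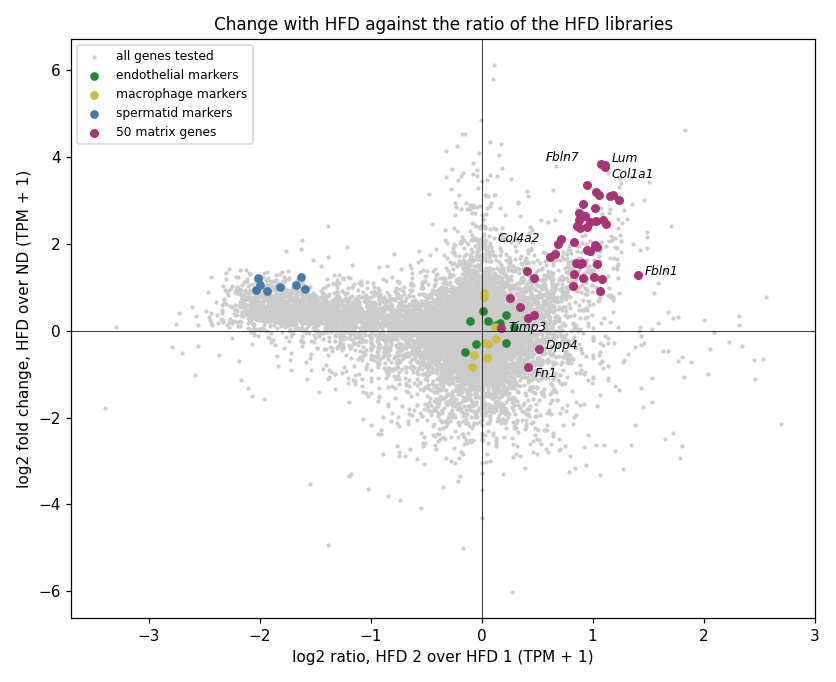
Log2 fold change between HFD and ND against the log2 ratio of HFD sample 2 over sample 1 (both TPM + 1) for all 16849 genes tested, with the matrix genes and 3 marker lists in color. Both axes use the same HFD libraries. Most matrix genes lie right of 0.8 and above 1, apart from macrophage and endothelial markers near 0 and spermatid markers on the left.

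Other genes of matrix production were compared in the same way. Their counts stand beside 8.08% of all genes tested called higher and 10.3% called lower. Of 25 genes of collagen synthesis and processing, 22 were tested, 8 were called higher and 1 lower, with a median log2 fold change of 0.64. Adamts2, the proteinase that removes the amino-terminal propeptide of fibrillar collagens, rose from 4.5 and 4.8 TPM to 25.3 and 57.7 TPM (2.80), and Fkbp10, a collagen chaperone, from 5.0 and 5.2 TPM to 14.6 and 29.8 TPM (1.85). Among general enzymes of the endoplasmic reticulum, P4hb had 593.6 and 608.9 TPM with ND and 743.1 and 852.8 TPM with HFD (0.40), and Ppib had 683.4 and 681 TPM with ND and 556.1 and 621.9 TPM with HFD (-0.21). The adjusted p of P4hb was 0.0476 in limma but its change was under 1.5-fold, and that of Ppib was 0.11. The gene called lower was P3h2, a collagen prolyl hydroxylase, at 79.4 and 89.4 TPM with ND and 26.8 and 19.6 TPM with HFD (-1.83). Of 15 genes of laminins, nidogens, perlecan and agrin, 11 were tested and 5 were called higher, with Lamb1 (2.0), Lama2 (1.96) and Nid1 (1.86) among them, while the abundant laminin chain Lamc1 was not called (1.52, adjusted p = 0.0536 in limma). Of 43 further matrix proteins, 34 were tested, 8 were called higher and 2 lower. Mgp, the matrix Gla protein, rose from 91.6 and 92.9 TPM to 411.9 and 872.9 TPM (2.69) and Svep1 from 7.8 and 7.9 TPM to 34.3 and 66.6 TPM (2.46), while Tgfbi, which macrophages make, fell from 1194 and 1189 TPM to 473 and 520 TPM (-1.26, adjusted p = 0.00537 in limma).

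Collagens outside the 50 were mostly low. The counts for them and for the receptors stand beside the same shares of all genes tested, 8.08% called higher and 10.3% lower. Of 27, 9 were tested and 3 were called higher, of which Col28a1 (0.5 and 0.7 TPM with ND, 2.0 and 2.4 TPM with HFD) passed the filter on low values through HFD alone. Col6a5 rose from 13.5 and 13.3 TPM to 50.9 and 124 TPM (log2 fold change 2.48). Col4a5 (1.14) was called higher at no more than 4.2 TPM, and Col6a6 (0.98) was not called. Among 19 receptors of matrix proteins, 18 were tested, 8 were called higher and 1 lower. The most abundant, Itgb1 (0.48) and Sdc4 (0.54), were not called. Mrc2, the collagen uptake receptor Endo180, rose from 1.8 TPM in both ND libraries to 18.1 and 44.7 TPM (3.40, log2 ratio of the HFD libraries 1.26). Itgb5, an integrin chain that pairs with αv, rose from 38.7 and 38.1 TPM to 169.4 and 192.4 TPM (2.20) with a ratio of 0.18. These 2 receptors thus rose with HFD while their ratios of the HFD libraries lay apart. That of Mrc2 was just above the range of the fibrillar collagens (0.93 to 1.19). That of Itgb5 equalled that of Timp3 (0.18) and was above the medians of endothelial (0.10), immune (0.09) and macrophage markers (0.03). The source of these transcripts was not tested.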

How the data were processed

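RNA-seq was analysed in 2 ND and 2 HFD samples of CD45+ cells, grouped by the sample titles. The authors prepared stranded mRNA libraries, trimmed reads with Trim Galore 0.4.2 and cutadapt 1.9.1, aligned them to mm10 with STAR 2.6.1e, removed duplicate reads with Sambamba, counted them per gene with featureCounts 1.6.2 and deposited TPM to 1 decimal. Tool versions are from the submitters' processing notes. Removing duplicates can lower the most abundant genes. The annotation and the use of strand are not given in the sources used here.

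The 16849 genes that reached 1 TPM in 2 or more samples were compared as log2(TPM + 1) with limma 3.58.1 in R 4.3.3 (variance trend, Benjamini-Hochberg adjustment over all genes tested). On simulated data for this comparison with 200 of 16849 genes changed, 54.5% were called, with 24.2% of changes by 1 and 74.6% of changes by 3 on the log2 scale, and 6.03% of the called genes were unchanged. The simulation varied each gene independently with the same spread in both diets, whereas the HFD libraries differed more than the ND libraries. These shares may thus not hold for the data. The pseudocount understates the fold changes of low genes. Reads per gene were estimated from the TPM steps of microRNA genes (240 to 275 per library) and exon lengths in GENCODE vM21 for 26698 genes, and are approximate. Pathway and marker lists were described by counts and medians. Alternatives were other pseudocounts, filters, scalings and fold limits, no variance trend, a replicate block and each sample left out in turn. All 50 genes were named, and of the other matrix lists the 2 most abundant genes and the 2 largest called changes whose diets did not overlap, and P3h2 was added after its value was seen, as the single gene called lower in its list. Marker genes were named by the same rule where a result turns on them, and C1qa, Adgre1, Col28a1, Fap, Osr1 and Tcf21 after their values were seen. The genes and lists were chosen with earlier results of these data known. Figures used matplotlib 3.10.9.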

Additional observations from a re-analysis of the deposited data

How the results depend on the processing

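The number of matrix genes called higher in HFD was 32, and it was 5 without a filter and between 27 and 34 under the other alternatives that keep all 4 samples without a block. Without a filter, 0 were called lower, as without a variance trend, under median-ratio scaling and where a 2-fold change was required, while Fn1 was lower at an unadjusted p under 0.05 in limma in each. Leaving out 1 sample gave between 0 and 46 matrix genes called higher and between 0 and 2 called lower. Of all genes tested, 3097 were called, and 2015 with a pseudocount of 5, 1602 where a 2-fold change was required and between 0 and 4232 with 1 sample left out. Without ND replicate 1 or ND replicate 2, 0 genes were called in limma, and 3862 and 4024 had an unadjusted p under 0.05. A fit with 1 sample in a diet assumes that it varies like the other diet. The closer pair of libraries is missing where an ND sample is left out. Where an HFD sample is left out, the wider pair is missing and calls rest on the closer one. Genes called higher in the other matrix lists numbered 36, and 10 without a filter, 22 under median-ratio scaling, 23 at a pseudocount of 5 and between 0 and 68 with 1 sample left out. The median log2 fold change of the matrix genes was 1.95, and 1.46 with a pseudocount of 5, which shrinks changes of low genes. Leaving out the first HFD sample gave 2.40 and leaving out the second gave 1.44, and the other alternatives gave values between 1.88 and 2.16. That of Timp3 turned to -0.0563 with quantile normalization and -0.00666 without the 50 most abundant genes, and with 1 sample left out it lay between -0.035 (without the second HFD sample) and 0.142. No other matrix gene changed sign. The median log2 ratio of the HFD libraries lay between 0.87 and 1.14 under the alternatives.

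Samples of both diets carry the replicate numbers 1 and 2. Same-numbered samples did not deviate together (correlation across genes -0.015), and no pairing was assumed. With a replicate block, 812 of all genes were called, with 3 matrix genes higher (Col3a1, Fbln7 and Lum), 0 lower and 6 higher in the other matrix lists, while 43 matrix genes were higher and 1 lower at an unadjusted p under 0.05 in limma, beside 5466 of all genes in either direction. Depth limits Fbln7, Mfap4, Tnc, Col12a1 and Col16a1, which had under 130 estimated reads in each ND library.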

Other observations

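Genes outside all lists with the behavior of the matrix genes were looked for after the values had been seen. Of 1361 genes called higher in HFD, 60 had a log2 ratio of HFD sample 2 over sample 1 between 0.8 and 1.3. Of these, 25 were among the 50 matrix genes, 11 were in the other lists and 24 were in none. The largest changes among the 24 were in Cilp, a cartilage matrix protein (8.6 and 9.4 TPM with ND, 81.9 and 181.9 TPM with HFD, log2 fold change 3.62), Cpxm1, a secreted carboxypeptidase-like protein (13 and 14.5 TPM with ND, 94.3 and 223.5 TPM with HFD, 3.31), and Tnfaip6, a hyaluronan-binding protein (28.1 and 33.6 TPM with ND, 163.5 and 392.6 TPM with HFD, 3.0). The matrix proteinases Adam12 (2.71), Mmp14 (2.49) and Adamts4 (2.22) and the inhibitor Timp1 (2.57) were also among them, as were the imprinted noncoding genes Rian (2.19) and Meg3 (2.05). These genes were chosen by their values, and no test was made of them as a group.

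Of the genes in the other matrix lists, 4 that were higher in HFD sample 1 than in HFD sample 2 are named here after their values were seen. Comp had 7.8 and 7.3 TPM with ND, 20.3 TPM for HFD sample 1 and 4.9 TPM in HFD sample 2, Col9a3 had 1.7, 1.8, 3.9 and 0.9 TPM, Col22a1 had 1.4, 1.2, 5.1 and 1.1 TPM, and Col2a1 had 0.6, 0.5, 2.0 and 0.4 TPM. HFD sample 1 was the highest library for each of the 4, as it was for the spermatid markers and unlike each of the 50 matrix genes.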
